A study of Mus musculus with 6 samples.

Results

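The comparison is between mouse embryonic stem cells (ESCs) that carried both surface proteins PECAM1 and PDGFRa and ESCs that carried PECAM1 alone. PECAM1 is an adhesion protein found on undifferentiated ESCs, and PDGFRa is a receptor tyrosine kinase for platelet-derived growth factor. The members are 4 of the 6 libraries of the series, chosen by the sort given in the labels: 2 from double-positive cells (PECAM1plusPDGFRaplus in the labels) and 2 from PECAM1-only cells (PECAM1plusPDGFRamin). The other 2 libraries came from PDGFRa-only cells (PECAM1minPDGFRaplus) and are used for the position of the double-positive level between the single-positive fractions. All 6 share the strain 129X1/SvJ x 129S1/Sv, passages 13 to 17, growth without feeder cells on gelatin in serum replacement with leukemia inhibitory factor (LIF), and RNA of 100000 sorted events, amplified before sequencing. The labels call the cultures undifferentiated and name no treatment, no genetic alteration and no clone. The libraries are numbered 1 and 2 in each fraction. It is not given whether libraries 1 and 2 come from different cultures or sorting runs, so each p measures only the spread between these libraries, which may be technical. Of 38561 genes in the count table, 13909 passed the count filter and were tested. By its title, the study sees in PDGFRa-carrying ESCs an equivalent of primitive endoderm precursors, and the comparison asks what differs in cells that have PDGFRa while PECAM1 is still present.

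In the mouse blastocyst, the inner cell mass gives rise to the pluripotent epiblast and to the primitive endoderm, an epithelium that later forms the visceral and parietal endoderm of the yolk sac. Epiblast cells are known for the transcription factor NANOG and secrete FGF4, while primitive endoderm is known for GATA6, GATA4, SOX17 and SOX7, for PDGFRa as an early surface marker, and for heavy secretion of laminin and collagen IV into basement membranes. PDGFRa signals through a dimer on the cell surface after binding PDGF chains, and its gene is a known target of GATA factors.

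The promoters of 3 genes are shown as examples: Pdgfra, the gene of the sorting protein, Dab2, an endocytic adaptor gene that rose, and Nanog, which fell. The sequences are RefSeq windows of the build GRCm38.p6 that run from 250 bases before to 50 bases after a transcription start, and where a gene has several windows the one listed first is given. Capitals mark AGATAA or TGATAA, the short motifs bound by GATA factors, on either strand, or, on either strand, the octamer element TTTGCAT followed after 1 base by the SOX element ACAATG, a pair known from the Nanog promoter. The motifs searched do not overlap in these windows.
Pdgfra, chr5:75152001-75152300, strand +: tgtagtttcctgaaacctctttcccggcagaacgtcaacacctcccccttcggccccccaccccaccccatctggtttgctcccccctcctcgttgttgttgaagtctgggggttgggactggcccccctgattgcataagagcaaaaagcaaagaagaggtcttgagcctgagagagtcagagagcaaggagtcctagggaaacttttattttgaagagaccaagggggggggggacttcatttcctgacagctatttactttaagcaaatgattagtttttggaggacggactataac
Dab2, chr15:6299539-6299838, strand +: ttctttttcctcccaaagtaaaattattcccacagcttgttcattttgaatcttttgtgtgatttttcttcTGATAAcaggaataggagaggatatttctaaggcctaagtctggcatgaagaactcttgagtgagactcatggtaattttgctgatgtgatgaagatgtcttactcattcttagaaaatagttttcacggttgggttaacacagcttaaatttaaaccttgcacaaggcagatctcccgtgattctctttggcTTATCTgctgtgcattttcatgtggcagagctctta
Nanog, chr6:122707239-122707538, strand +: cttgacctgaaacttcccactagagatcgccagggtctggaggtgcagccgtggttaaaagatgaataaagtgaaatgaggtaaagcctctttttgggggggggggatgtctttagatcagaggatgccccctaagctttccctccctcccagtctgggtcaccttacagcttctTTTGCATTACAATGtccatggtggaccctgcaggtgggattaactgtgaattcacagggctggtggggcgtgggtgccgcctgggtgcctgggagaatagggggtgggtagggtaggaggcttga
The Dab2 window held 2 GATA-type motifs, and the Pdgfra and Nanog windows held 0. Of the 7 endocytic and hormone receptor genes described below, 6 had a window. Dab2 was the only 1 of these 6 with a GATA-type motif (1 of 9 windows). Of the 9 endoderm transcription factor genes, 3 had a window and 2 of these held the motif, in 2 of 6 windows. A GATA-type motif was found in 18.6% of all 32851 windows of the same length. Counted by gene, it was found for 21% of all genes with a window and 11.9% of the tested genes with a window. The octamer and SOX pair was found in 2 windows (0.00609%), both of them of Nanog. The pair was searched as the exact string known from Nanog, and variants of it were not searched. Its share therefore describes the string and is no finding. Of the 517 genes that rose at least 8-fold, 357 had a window, and 57 of their 497 windows (11.5%) held a GATA-type motif, beside 1207 of 12043 windows (10%) of all tested genes. The difference was not tested. A match is a run of letters and not a measured binding site.

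The double-positive cells differed from the PECAM1-only cells in 5319 genes, 38.2% of those tested (edgeR, adjusted p under 0.05): 3031 rose (21.8%) and 2288 fell (16.4%). The largest differences lay mostly on the side of the rises. At least 2-fold higher were 1985 genes (14.3%) and at least 2-fold lower 1235 (8.88%). This balance at 2-fold depended on the scaling. Upper-quartile scaling gave 1672 genes at least 2-fold higher and 1670 lower, and library size alone 1604 and 1802. At least 8-fold higher were 517 genes (3.72%), against 10 genes at least 8-fold lower (0.0719%). The 517 genes held 6.63% and 7.04% of the counts of the double-positive libraries and 0.294% and 0.323% of the PECAM1-only libraries. The median log2 fold change of all tested genes was -0.01. The split between rises and falls depends on the scaling of the libraries: with upper-quartile scaling 2528 rose and 3306 fell, and with library size alone 2421 rose and 3658 fell. These scalings moved the median of all genes to -0.17 and -0.22, so that a log2 fold change near 0 has no fixed sign, while the large rises described here are far above this shift. The number of falls was 1307 to 1453 without 1 of the 4 compared libraries, each of which lowered it by more than 1.5 times: it was 1317 and 1453 without PECAM1-only replicates 1 and 2, and 1339 and 1307 with double-positive replicates 1 and 2 left out in turn. The libraries held 4809661 to 7273669 counts, and 17811 to 20510 genes had a count.

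**Figure D1:**
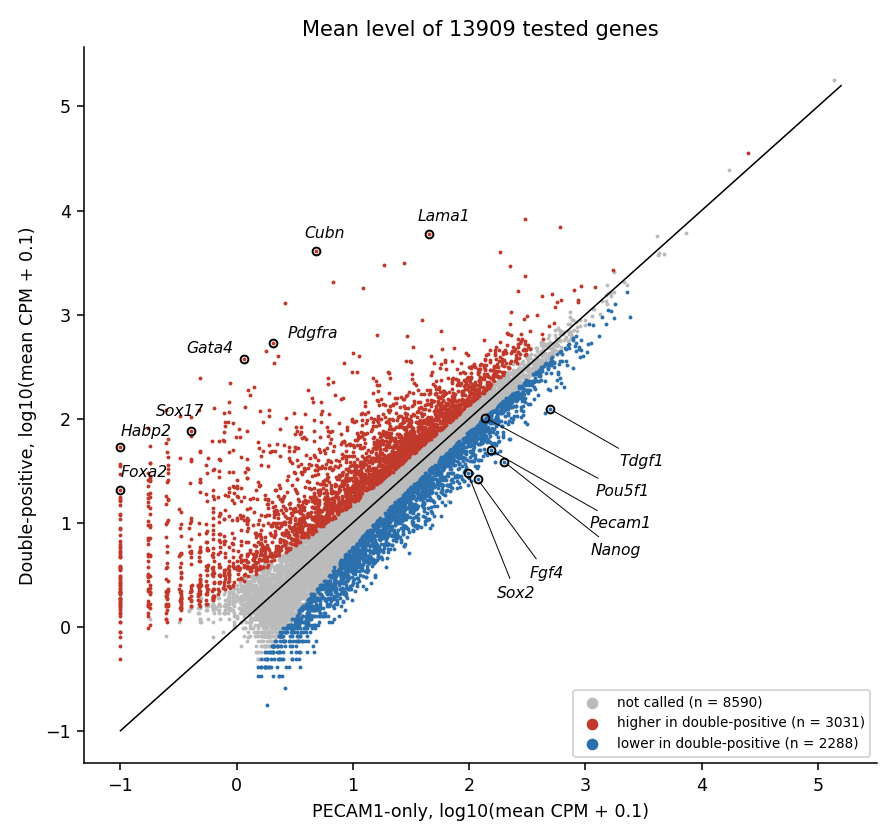
Mean level in the double-positive libraries (y axis) against the PECAM1-only libraries (x axis), both as log10(CPM + 0.1), for 13909 tested genes. CPM are scaled counts per 1000000, each point is a gene, red points rose (3031), blue points fell (2288), grey points were not called, and the line marks equal levels. The red points reach much farther from the line than the blue points.

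Both sorting proteins had transcript levels that matched the labels. Pdgfra (ENSMUSG00000029231, GRCm38 chromosome 5, 75152292 to 75198215) had 552 and 518 CPM in the double-positive libraries and 2.04 and 1.88 CPM in the PECAM1-only libraries (log2 fold change 8.08, SE 0.24, edgeR adjusted p = 8.07e-16). Pecam1 (ENSMUSG00000020717, chromosome 11, 106654217 to 106750628) had 53.8 and 44.9 CPM against 166 and 143 CPM (log2 fold change -1.65, SE 0.17, edgeR adjusted p = 1.55e-07). Both double-positive libraries were below both PECAM1-only libraries in Pecam1, although the sort kept PECAM1 in both fractions, and the mean was 31.97% of the PECAM1-only mean. Such a lack of overlap between 2 and 2 libraries was common: of all tested genes, 36.2% had both double-positive libraries above and 35.5% had both below. The sort fixes the direction for Pdgfra, so its difference checks the labels and is no finding.

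The double-positive level of a gene could be placed between the single-positive fractions. For 75 genes with a mean of at least 20 CPM in the PECAM1-only fraction and at most 2% of that in the PDGFRa-only fraction, the double-positive mean was 28.5% of the PECAM1-only mean at the median (quartiles 24.9% to 32.0%, range 16.5% to 50.6%). For 130 genes with the opposite pattern, it was 65.3% of the PDGFRa-only mean (quartiles 57.3% to 70.03%, range 40.2% to 114%). With a limit of 5% in place of 2%, the medians were 30.5% over 148 genes and 65.4% over 221 genes. These limits were chosen after the values were seen, and the positions are given as a description with no test. Pecam1 itself stood at 31.97% of the PECAM1-only level and Pdgfra at 96.02% of the PDGFRa-only level, the latter above the upper quartile of 70.03%. In RNA from sorted bulk samples, fewer cells of a type and less RNA per cell cannot be told apart.

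**Figure D2:**
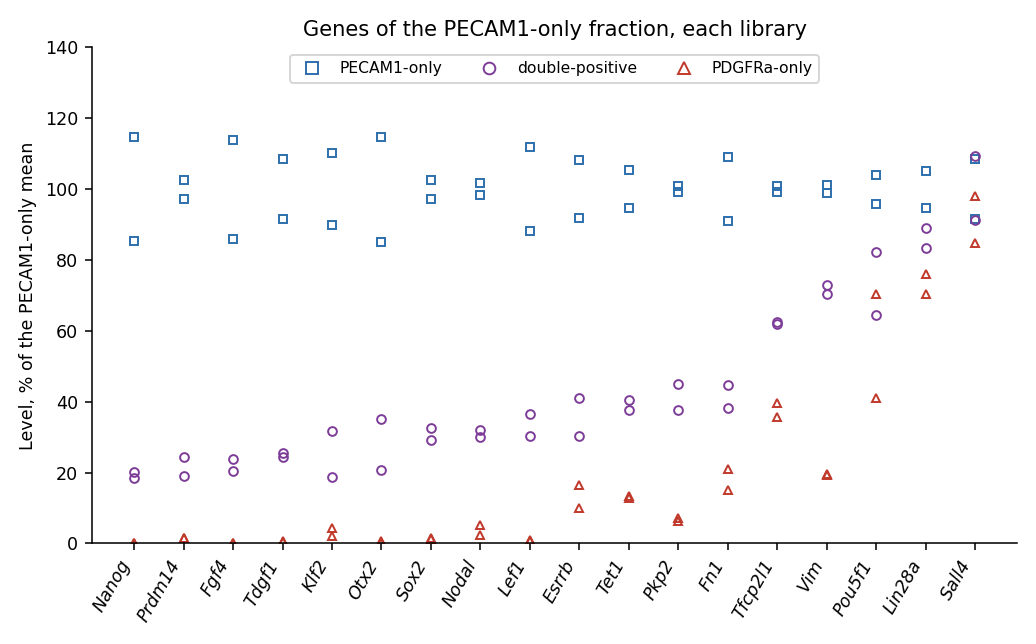
Level of 18 genes in each of the 6 libraries as a percent of the PECAM1-only mean (y axis), with squares for PECAM1-only, circles for double-positive and triangles for PDGFRa-only libraries. From Nanog to Fn1 both circles lie between the squares and the triangles, at 50% or less, while those of Sall4 overlap the squares.

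Transcription factor genes of the primitive endoderm were high in the double-positive cells. Of 9 genes, 8 rose and 0 fell, with a median log2 fold change of 7.11 (6.93 with genes at 0 counts set to their floor), beside 21.8% of all tested genes that rose. Of the 9, 5 passed the count filter only through fractions other than PECAM1-only, so their count and median describe the list and support nothing further. Gata4, a zinc finger factor that drives endoderm genes, had 375 and 379 CPM against 1.02 and 1.10 CPM (log2 fold change 8.45, SE 0.27, edgeR adjusted p = 1.48e-15). Gata6, the earliest known of these factors, had 238 and 249 CPM against 5.39 and 6.59 CPM (log2 fold change 5.34, SE 0.20, edgeR adjusted p = 1.84e-14). The double-positive libraries lay above the PECAM1-only libraries in both genes with no overlap, as in 36.2% of all tested genes.

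Sox17 and Sox7 encode SOX factors that follow GATA factors in this lineage. Sox17 had 75.5 and 76.5 CPM against 0.291 and 0.314 CPM (log2 fold change 7.88, SE 0.33, edgeR adjusted p = 8.07e-14), and Sox7 had 164 and 175 CPM against 1.60 and 0.784 CPM (log2 fold change 7.11, SE 0.27, edgeR adjusted p = 2.27e-14; 7.74 without PECAM1-only replicate 1). Foxa2, a forkhead factor of endoderm, had 18.1 and 23.001 CPM against 0 counts, at least 90.8-fold higher when set against a floor of 3 counts over the fraction. In each of these genes the level of the PECAM1-only libraries rests on few counts or none. Foxq1, another forkhead factor gene, had 26.3 and 24.1 CPM, and 1 count in the PECAM1-only fraction gave a ratio of 334 (exact 95% counting interval 59.5 to 13217). Hnf4a, a nuclear receptor of visceral endoderm and liver, was present in both fractions, with 53.8 and 64.6 CPM against 13.7 and 16.3 CPM (log2 fold change 1.98, SE 0.20, edgeR adjusted p = 1.02e-07). Hhex, a homeobox factor of anterior visceral endoderm, was the member that did not pass the test, with 8.50 and 12.2 CPM against 6.99 and 7.68 CPM (log2 fold change 0.50, SE 0.29, edgeR adjusted p = 0.187). Relative to PDGFRa-only cells the means ranged from 40.2% for Foxq1 to 83.2% for Gata6.

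**Figure D3:**
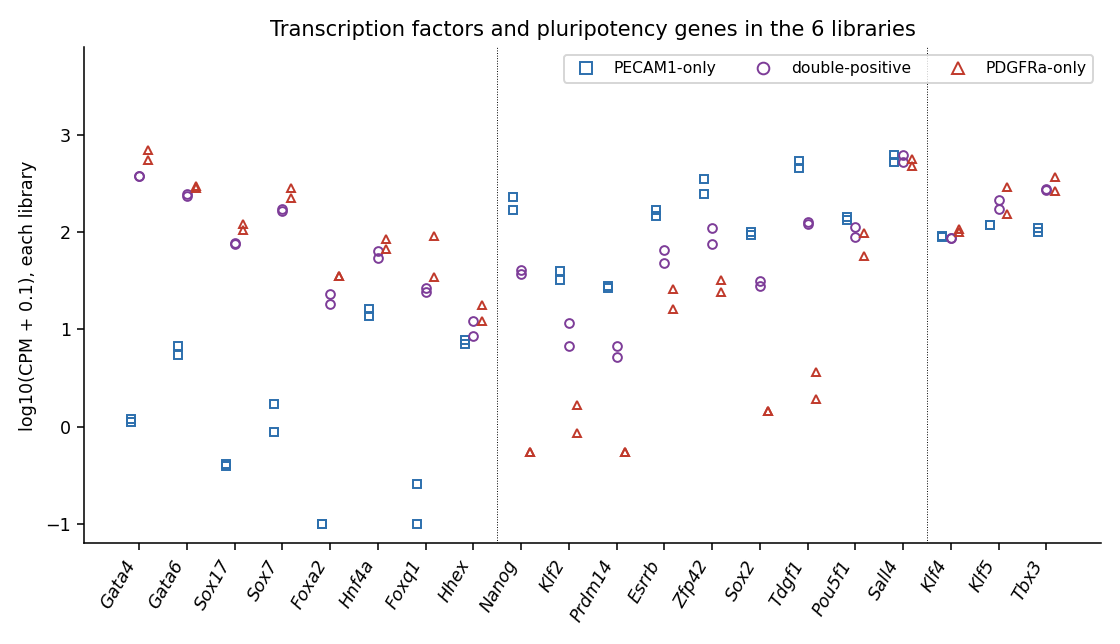
Level of 20 genes in each of the 6 libraries on a log10(CPM + 0.1) scale (y axis), with squares for PECAM1-only, circles for double-positive and triangles for PDGFRa-only libraries. Dotted lines separate 8 endoderm transcription factors, 9 pluripotency genes and 3 further pluripotency genes that did not fall (Klf4, Klf5, Tbx3). Of the 9, Pou5f1 and Sall4 were not called either. In the first block the circles lie near the triangles and, except for Hhex, well above the squares, and in the middle block Nanog, Klf2, Prdm14, Sox2 and Tdgf1 have circles between widely separated squares and triangles.

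All 7 genes of the list of endocytic and hormone receptors rose, beside 21.8% of all tested genes, with a median log2 fold change of 7.58, or 7.27 when genes at 0 counts are put at their floor; 3 of the 7 passed the filter only through other fractions. Cubilin, megalin, amnionless and DAB2 form the uptake machinery of visceral endoderm. Cubn, the ligand-binding subunit, had 3891 and 4305 CPM against 5.10 and 4.39 CPM (log2 fold change 9.75, SE 0.26, edgeR adjusted p = 3.12e-16). Lrp2, which encodes megalin, was already at 209.6 and 239.8 CPM in the PECAM1-only libraries and at 2849 and 3029.5 CPM in the double-positive libraries (log2 fold change 3.71, SE 0.20, edgeR adjusted p = 3.32e-12). Dab2, the adaptor whose promoter is printed here, had 1980.5 and 2145 CPM against 5.24 and 7.997 CPM (log2 fold change 8.29, SE 0.25, edgeR adjusted p = 8.07e-16). No PECAM1-only library reached the double-positive level in any of these 3 genes, as in 36.2% of all tested genes. Amn, the membrane anchor of cubilin, had 31.9 and 33.6 CPM, and 2 counts in the PECAM1-only fraction gave a ratio of 217 (exact 95% counting interval 59.8 to 1799). Pth1r, a receptor for parathyroid hormone and its related peptide, had 93.8 and 91.7 CPM against 1.16 and 0.314 CPM (log2 fold change 6.90, SE 0.33, edgeR adjusted p = 5.73e-13; 8.14 and 6.30 without PECAM1-only replicates 1 and 2). Lpar3, a lysophosphatidic acid receptor, had 25.3 and 44.7 CPM against 0 counts, at least 155-fold higher. Folr1, a folate receptor, had the smallest difference of the list, with 69.1 and 63.1 CPM against 47.5 and 37.01 CPM (log2 fold change 0.64, SE 0.19, edgeR adjusted p = 0.0121). Folr1 was not called without PECAM1-only replicate 2 (adjusted p = 0.143) or double-positive replicate 1 (0.0686) and with upper-quartile scaling (0.0516), scaling by library size alone (0.0758), RPKM in limma with pseudocount 1 (0.145) or RPKM in limma with pseudocount 0.1 (0.148).

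The basement membrane list split by chain. Of its 16 genes, 10 rose (62.5%) and 4 fell (25%), beside 21.8% and 16.4% of all tested genes. Here and below, list shares are over all members, tested or not, and the shares of all genes are over tested genes. Where members were not tested, the shares over tested members alone are higher. Agrn did not pass the test, Egfl6 was too low to be tested, and the median of the 15 tested was 2.56. The rises included all 3 chains of laminin 111, the laminin of early embryos. Lama1 had 5865 and 6128 CPM against 36.8 and 53.6 CPM (log2 fold change 7.05, SE 0.24, edgeR adjusted p = 3.62e-15), Lamb1 had 2961 and 3258 CPM against 23.7 and 31.05 CPM (log2 fold change 6.83, SE 0.23, edgeR adjusted p = 2.52e-15), and Lamc1 had 6933 and 7084 CPM against 591 and 630.4 CPM (log2 fold change 3.52, SE 0.18, edgeR adjusted p = 2.55e-12). Lamc1 was thus already high in the PECAM1-only libraries, and the double-positive libraries were higher still. Both collagen IV chain genes rose to similar degrees, Col4a1 with 2896 and 3147 CPM against 18.1 and 19.1 CPM (log2 fold change 7.34, SE 0.24, edgeR adjusted p = 1.48e-15) and Col4a2 with 1784 and 1813 CPM against 10.5 and 13.6 CPM (log2 fold change 7.22, SE 0.26, edgeR adjusted p = 8.93e-15). Their means were 52.8% and 49.5% of the PDGFRa-only means, against 68.1% for Lama1. Sparc, a collagen-binding matrix protein, had 7952 and 8513 CPM against 319.8 and 290.3 CPM (log2 fold change 4.75, SE 0.20, edgeR adjusted p = 1.11e-13). The linker genes Nid1 (2.56, edgeR adjusted p = 2.25e-10) and Nid2 (1.12, edgeR adjusted p = 1.85e-05), the perlecan gene Hspg2 (2.67, edgeR adjusted p = 7.67e-10) and the laminin chain gene Lamb2 (1.79, edgeR adjusted p = 1.59e-06) rose less.

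The 4 matrix genes that fell were Fn1, Col18a1, Lama5 and Npnt. Fn1, which encodes fibronectin, had 367 and 429 CPM against 874 and 1049 CPM (log2 fold change -1.27, SE 0.18, edgeR adjusted p = 6.82e-06), and Col18a1, the source of endostatin, had 19.7 and 27.7 CPM against 47.02 and 58.5 CPM (log2 fold change -1.15, SE 0.21, edgeR adjusted p = 1.96e-04). Lama5, the alpha chain of the laminins of later basement membranes, had 62.3 and 76.8 CPM against 95.8 and 114 CPM (log2 fold change -0.59, SE 0.18, edgeR adjusted p = 0.0107). Each of these 3 genes was lower in both double-positive libraries than in both PECAM1-only libraries, as were 35.5% of all tested genes. Npnt, which encodes the integrin ligand nephronectin, had 5.82 and 5.95 CPM against 9.03 and 12.4 CPM (log2 fold change -0.86, SE 0.30, edgeR adjusted p = 0.0258). Agrn, the agrin gene, had 180.5 and 190.0 CPM against 213 and 251 CPM (log2 fold change -0.32, SE 0.16, edgeR adjusted p = 0.126), and Agrn was called with upper-quartile scaling (adjusted p = 0.0183) or scaling by library size alone (0.00993). Lama5 was not called without PECAM1-only replicate 2 (adjusted p = 0.150) or double-positive replicate 1 (0.197), and Npnt was not called without PECAM1-only replicate 2 (adjusted p = 0.259), double-positive replicate 1 (0.141) or double-positive replicate 2 (0.119) and with the DESeq2 test (0.0660).

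Genes that fold and modify collagen rose in 13 of 13 members, beside 21.8% of all tested genes, with a median of 2.19; 1 of the 13 passed the filter only through another fraction. Serpinh1, the collagen chaperone HSP47, had 625 and 651 CPM against 11.2 and 20.5 CPM (log2 fold change 5.33, SE 0.24, edgeR adjusted p = 1.64e-13). P4ha2, a catalytic subunit of collagen prolyl 4-hydroxylase, had 372 and 431 CPM against 9.32 and 13.2 CPM (log2 fold change 5.16, SE 0.22, edgeR adjusted p = 1.00e-13). P3h2, a prolyl 3-hydroxylase listed as Leprel1 in the table, had 115 and 129 CPM, and 2 counts in the PECAM1-only fraction gave a ratio of 809 (exact 95% counting interval 224 to 6687). Plod2 and Plod3, which encode lysyl hydroxylases, had log2 fold changes of 2.95 (edgeR adjusted p = 1.12e-10) and 2.67 (5.12e-11). The levels of these genes did not overlap between the fractions, and 36.2% of all tested genes likewise had both double-positive libraries above. The smallest rise was that of Fkbp10, a prolyl isomerase (0.76, edgeR adjusted p = 0.0243). Fkbp10 was not called without PECAM1-only replicate 1 (adjusted p = 0.151), PECAM1-only replicate 2 (0.0619) or double-positive replicate 2 (0.225) and with upper-quartile scaling (0.0744), scaling by library size alone (0.0958) or the DESeq2 test (0.115).

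Secretory and lysosomal genes were also higher. Of 14 genes of the endoplasmic reticulum and the unfolded protein response, 11 rose and 0 fell (median 1.13), and of 17 lysosomal genes, 16 rose and 0 fell (median 1.95). Over all tested genes, 21.8% rose and 16.4% fell. Of the lysosomal genes, 1 was tested only through another fraction. Creb3l2, a membrane-bound transcription factor that drives secretory genes, had 351 and 339.8 CPM against 8.73 and 7.84 CPM (log2 fold change 5.38, SE 0.21, edgeR adjusted p = 1.96e-14). The chaperone genes moved less: the log2 fold change was 1.64 for Pdia3 (edgeR adjusted p = 4.24e-08), 1.21 for Calr (1.48e-05) and 1.03 for Hspa5 (5.08e-04). Xbp1, the main transcription factor of the unfolded protein response, had 182 and 181 CPM against 58.4 and 74.6 CPM (log2 fold change 1.45, SE 0.17, edgeR adjusted p = 5.58e-07), and Sec61a1, the channel through which chains enter the reticulum, rose as well (1.37, edgeR adjusted p = 6.29e-07). Ddit3, a stress-induced factor of the same response, did not pass the test (-0.06, edgeR adjusted p = 0.866), nor did Canx (0.28, edgeR adjusted p = 0.166) and Sec61b (0.54, edgeR adjusted p = 0.0615). Sec61b was called without PDGFRa-only replicate 1 (adjusted p = 0.0295) or PDGFRa-only replicate 2 (0.0313) and with a fit to the 4 libraries (0.0397). Among the cathepsins, the proteases of the lysosome, Ctsl had 3975 and 3926 CPM against 167 and 204 CPM (log2 fold change 4.41, SE 0.24, edgeR adjusted p = 5.03e-12). Ctsh had 214 and 221 CPM against 0.291 and 1.25 CPM (log2 fold change 8.13, SE 0.34, edgeR adjusted p = 8.20e-14; 7.44 and 9.46 without PECAM1-only replicates 1 and 2). Ctsc (5.02, edgeR adjusted p = 4.92e-12) and Ctsz (3.67, edgeR adjusted p = 2.59e-12) rose strongly too, whereas Ctsd, a cathepsin of most cells, rose less (1.04, edgeR adjusted p = 3.75e-05). Hexa, which encodes a hexosaminidase subunit, rose (2.09, edgeR adjusted p = 1.23e-08).

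Markers of both later derivatives of primitive endoderm were present. Of 14 visceral endoderm genes, 9 were tested and 9 rose, beside 21.8% of all tested genes. The median was 3.63 (1.85 over all 14 with no filter), and 5 of the 9 were tested only through other fractions. Apoa1, Afp, Cer1, Trf and Slc2a2 were too low to be tested, with 0 to 0.472 CPM in each double-positive library. Ttr, a thyroid hormone carrier, had 7.55 and 7.51 CPM against 0 counts, at least 33.3-fold higher. Amot, which encodes the junction protein angiomotin, had 165 and 240.0 CPM against 0.728 and 1.88 CPM (log2 fold change 7.28, SE 0.31, edgeR adjusted p = 1.11e-13; 8.09 without PECAM1-only replicate 2). Spink3, a trypsin inhibitor gene, had 25.96 and 36.8 CPM against 0.437 and 0.784 CPM (log2 fold change 5.65, SE 0.36, edgeR adjusted p = 5.12e-11). Of these 3 genes, Ttr and Spink3 stood at 57.8% and 43.7% of the PDGFRa-only means and Amot at 70.1%. Apob, a lipoprotein gene, had 3.15 and 3.91 CPM against 1.31 and 1.10 CPM (log2 fold change 1.53, SE 0.48, edgeR adjusted p = 0.0150), and Apob was not called without PECAM1-only replicate 1 (adjusted p = 0.0645), PECAM1-only replicate 2 (0.0948) or double-positive replicate 2 (0.131) and with the DESeq2 test (0.102), RPKM in limma with pseudocount 1 (0.263) or RPKM in limma with pseudocount 0.1 (0.100).

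Of 10 parietal endoderm genes, 9 rose and 1 fell, beside 21.8% and 16.4% of all tested genes. The median was 6.23, and 6 passed the filter only through other fractions. Srgn, a proteoglycan core protein gene, had 1273 and 1296 CPM against 2.04 and 2.98 CPM (log2 fold change 8.996, SE 0.25, edgeR adjusted p = 4.22e-16). Krt8 and Krt18, the keratin pair of early epithelia, rose together, Krt8 to 43.4 and 34.6 CPM against 0.291 and 0.314 CPM (log2 fold change 6.92, SE 0.36, edgeR adjusted p = 2.65e-12) and Krt18 to 47.2 and 72.8 CPM against 1.31 and 1.57 CPM (log2 fold change 5.37, SE 0.30, edgeR adjusted p = 9.57e-12). Thbd, which encodes thrombomodulin, had 25.3 and 45.5 CPM against 0.582 and 0.314 CPM (log2 fold change 6.23, SE 0.45, edgeR adjusted p = 7.63e-10). Plat, the tissue plasminogen activator gene, had 43.4 and 51.6 CPM, and 2 counts in the PECAM1-only fraction gave a ratio of 315 (exact 95% counting interval 86.8 to 2606). Snai1, a factor of epithelial to mesenchymal transition, had 19.98 and 28.3 CPM against 0.437 and 0.157 CPM (log2 fold change 6.23, SE 0.46, edgeR adjusted p = 5.17e-10; 7.11 without PECAM1-only replicate 1). The exception was Vim, the vimentin gene, with 195 and 201 CPM against 279.5 and 273 CPM (log2 fold change -0.48, SE 0.15, edgeR adjusted p = 0.0142). Vim was not called without PECAM1-only replicate 1 (adjusted p = 0.104), PECAM1-only replicate 2 (0.0651), double-positive replicate 1 (0.148) or double-positive replicate 2 (0.103).

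Naive pluripotency genes were mostly lower in the double-positive cells and still present. Of 17 genes, 11 fell, 3 rose and 3 did not pass the test, with a median of -1.42, beside 16.4% of all tested genes that fell. Nanog (ENSMUSG00000012396, chromosome 6, 122707489 to 122714633), the factor that opposes primitive endoderm, had 40.3 and 36.9 CPM against 169 and 228 CPM (log2 fold change -2.36, SE 0.18, edgeR adjusted p = 1.39e-09). Its PDGFRa-only level was 0.449 and 0.453 CPM, so that the double-positive mean was 19.4% of the PECAM1-only mean and far above the PDGFRa-only libraries. Prdm14, a repressor of differentiation genes, had 6.61 and 5.16 CPM against 27.9 and 26.5 CPM (log2 fold change -2.21, SE 0.25, edgeR adjusted p = 5.28e-07). Klf2, a factor of the naive network, had 11.5 and 6.73 CPM against 39.7 and 32.5 CPM (log2 fold change -1.99, SE 0.26, edgeR adjusted p = 3.80e-06). The 2 fractions did not overlap in any of these genes, and 35.5% of all tested genes likewise had both double-positive libraries below.

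Fgf4, given with the FGF genes, fell as well. Further falls were smaller. Nr0b1 (-1.90, edgeR adjusted p = 8.24e-06), Nr5a2 (-1.74, edgeR adjusted p = 1.38e-05), Zfp42 (-1.69, edgeR adjusted p = 1.26e-06) and Esrrb (-1.49, edgeR adjusted p = 5.03e-06) encode transcription factors and had double-positive means of 26.7% to 35.7% of the PECAM1-only means. Fbxo15 (-0.88, edgeR adjusted p = 2.97e-04) and Tfcp2l1 (-0.68, edgeR adjusted p = 0.00117) fell least. Dppa3, a germ cell and ESC marker, had 2.68 and 2.03 CPM against 7.42 and 5.17 CPM (log2 fold change -1.42, SE 0.50, edgeR adjusted p = 0.0287), and Dppa3 was not called without PECAM1-only replicate 1 (adjusted p = 0.240), double-positive replicate 1 (0.0672) or double-positive replicate 2 (0.149) and with the DESeq2 test (0.0744) or RPKM in limma with pseudocount 0.1 (0.117). The 3 members that rose were Tbx3, Tdh and Klf5. Tbx3, a T-box factor, had 281 and 272 CPM against 99.9 and 109 CPM (log2 fold change 1.40, SE 0.17, edgeR adjusted p = 1.33e-06), and Tdh, the threonine dehydrogenase gene of mouse ESCs, had 84.97 and 81.4 CPM against 48.2 and 34.7 CPM (log2 fold change 1.004, SE 0.18, edgeR adjusted p = 1.70e-04). Klf5, a zinc finger factor, had 216 and 172 CPM against 119 and 118 CPM (log2 fold change 0.71, SE 0.23, edgeR adjusted p = 0.0203), and Klf5 was not called without PECAM1-only replicate 1 (adjusted p = 0.103), PECAM1-only replicate 2 (0.104) or double-positive replicate 1 (0.121) and with upper-quartile scaling (0.0743), scaling by library size alone (0.0982), RPKM in limma with pseudocount 1 (0.0940) or RPKM in limma with pseudocount 0.1 (0.0956). Klf4 did not pass the test, with 87.02 and 87.2 CPM against 88.5 and 91.1 CPM (log2 fold change -0.04, SE 0.16, edgeR adjusted p = 0.857), and neither did Dppa5a (0.25, edgeR adjusted p = 0.261) or Tcl1 (-0.44, edgeR adjusted p = 0.209).

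Of 13 general pluripotency genes, 7 fell and 0 rose, beside 16.4% and 21.8% of all tested genes, with a median of -0.84. With upper-quartile scaling or library size alone, 10 fell. Sox2, which pairs with the octamer factor at elements such as the pair in the Nanog promoter, had 28.2 and 31.6 CPM against 94.3 and 99.6 CPM (log2 fold change -1.70, SE 0.18, edgeR adjusted p = 1.50e-07). Pou5f1, which encodes that octamer factor OCT4, had 113 and 89.03 CPM against 144 and 132 CPM (log2 fold change -0.45, SE 0.20, edgeR adjusted p = 0.0905). Sox2 was therefore at 30.8% of the PECAM1-only mean and Pou5f1 at 73.4%; the difference between the genes was not tested. Pou5f1 was called without PDGFRa-only replicate 1 (adjusted p = 0.0123) or PDGFRa-only replicate 2 (0.0119) and with DESeq2 size factors (0.0470), upper-quartile scaling (0.0206), scaling by library size alone (0.0138), a fit to the 4 libraries (0.0142) or the replicate block (0.0326). Tdgf1, a co-receptor for Nodal, had 121 and 127 CPM against 452 and 536 CPM (log2 fold change -1.995, SE 0.17, edgeR adjusted p = 7.18e-09). Lin28b (-1.42, edgeR adjusted p = 2.76e-05) fell, while its paralog Lin28a (-0.21, edgeR adjusted p = 0.288), both known as blockers of let-7 microRNA maturation, did not pass the test. Sall4, a zinc finger factor that both epiblast and primitive endoderm need, had 624 and 521 CPM against 619 and 522 CPM (log2 fold change 0.01, SE 0.16, edgeR adjusted p = 0.983). Utf1 (-0.92, edgeR adjusted p = 0.00189), Dppa4 (-1.001, edgeR adjusted p = 0.00164), L1td1 (-0.84, edgeR adjusted p = 0.00263) and Dppa2 (-0.73, edgeR adjusted p = 0.0203) fell, and Foxd3 (-1.21, edgeR adjusted p = 0.0785) and Dnmt3l (-0.10, edgeR adjusted p = 0.770) did not pass. Foxd3 was called without PDGFRa-only replicate 1 (adjusted p = 0.0392), PDGFRa-only replicate 2 (0.0422), PECAM1-only replicate 2 (0.0424) or double-positive replicate 1 (0.0243) and with upper-quartile scaling (0.0431), scaling by library size alone (0.0358) or the replicate block (0.0347), at a log2 fold change of -2.23 when double-positive replicate 1 was left out.

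Some calls of this list rested on single libraries. Dppa2 was not called without PECAM1-only replicate 1 (adjusted p = 0.387) or double-positive replicate 2 (0.222) and with RPKM in limma with pseudocount 0.1 (0.0575). Dppa4 was not called without PECAM1-only replicate 1 (adjusted p = 0.0675) or double-positive replicate 2 (0.0504), and L1td1 was not called without PECAM1-only replicate 1 (adjusted p = 0.101) or double-positive replicate 2 (0.0942). Lin28a was called with upper-quartile scaling (adjusted p = 0.0450), scaling by library size alone (0.0255), RPKM in limma with pseudocount 1 (0.0403) or RPKM in limma with pseudocount 0.1 (0.0408).

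Primed epiblast genes mark the state after implantation. Of 11, 5 fell and 1 rose, beside 16.4% and 21.8% of all tested genes, and 2 were too low to be tested. The median of the tested was -1.15. Otx2, a homeobox factor of the exit from naive pluripotency, had 34.5 and 20.3 CPM against 113 and 83.9 CPM (log2 fold change -1.85, SE 0.23, edgeR adjusted p = 1.89e-06). Zic2 (-1.36, edgeR adjusted p = 1.00e-04), Zic5 (-1.45, edgeR adjusted p = 1.51e-04) and Sfrp2 (-1.15, edgeR adjusted p = 0.0109) fell as well, as did Lef1, described with the Wnt genes. Dnmt3b, the de novo DNA methyltransferase gene of the epiblast, rose to 638 and 485 CPM against 364 and 240.2 CPM (log2 fold change 0.89, SE 0.19, edgeR adjusted p = 6.99e-04). Pou3f1 (-0.09, edgeR adjusted p = 0.909), Sall2 (-0.11, edgeR adjusted p = 0.791) and Dnmt3a (0.28, edgeR adjusted p = 0.241) did not pass the test. Fgf5 and Sox3, further markers of the primed state, were too low to be tested: Fgf5 had 0.315 and 0.469 CPM and Sox3 had 0.157 and 0.313 CPM in the double-positive libraries. Sfrp2 was not called without PECAM1-only replicate 2 (adjusted p = 0.114) or double-positive replicate 1 (0.211) and with RPKM in limma with pseudocount 0.1 (0.0662).

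**Figure D4:**
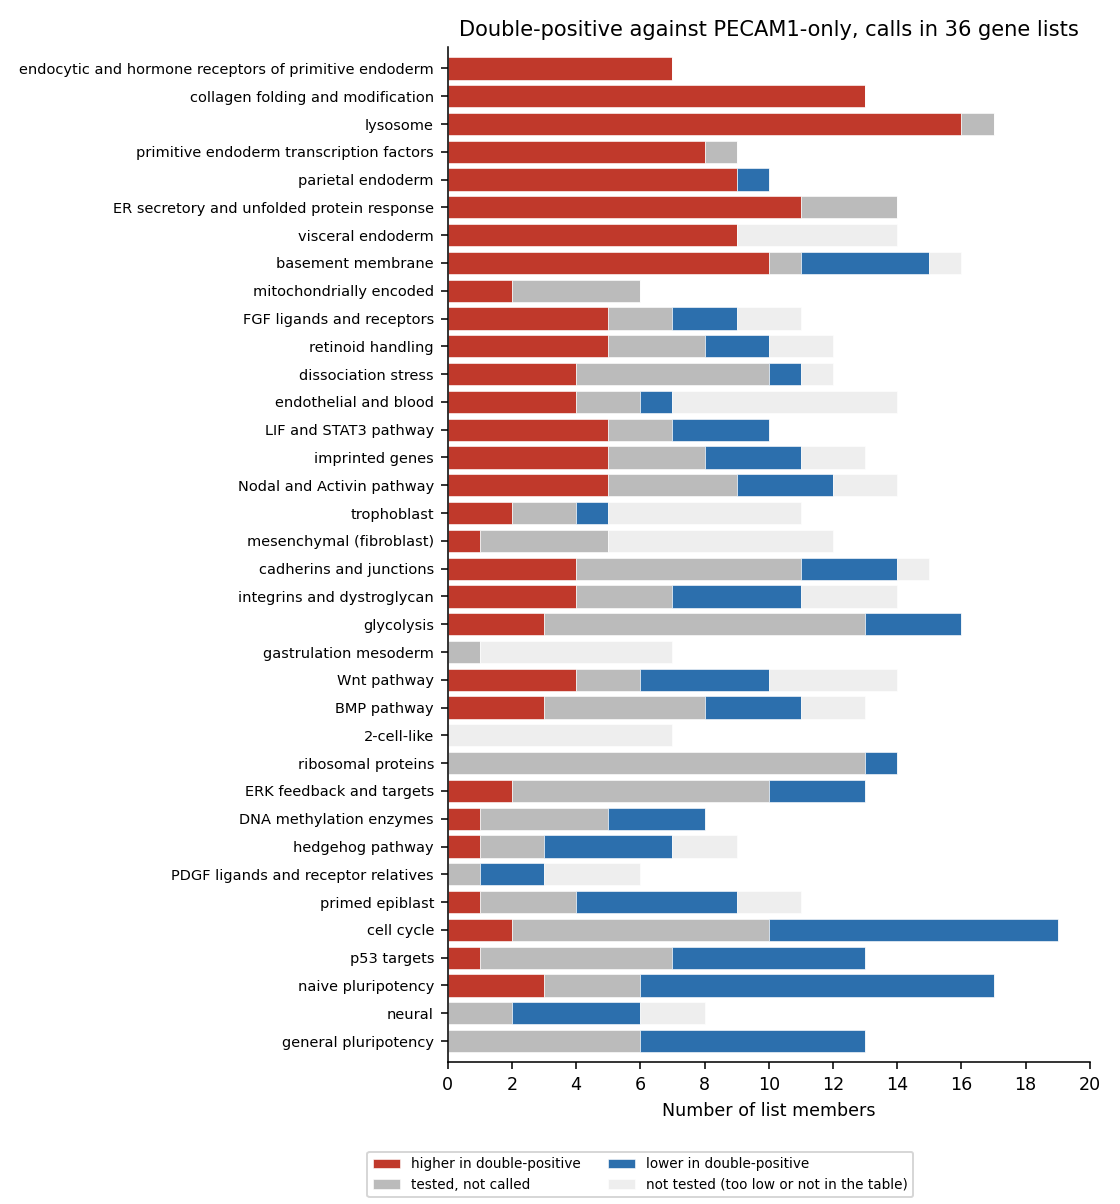
Number of members (x axis) that rose (red), were tested and not called (grey), fell (blue) or were not tested (light) in the double-positive against the PECAM1-only libraries, for 36 gene lists (y axis) ordered by the balance of rises and falls. Receptor, collagen folding and lysosome lists stand at the top with no blue, and general pluripotency and neural genes stand at the bottom with no red.

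Genes of the FGF pathway moved in both directions. FGF4 from epiblast cells is known to drive primitive endoderm through FGFR1 and FGFR2. Of 11 genes, 5 rose and 2 fell (45.5% and 18.2%, beside 21.8% and 16.4% of all tested genes). Tested were 9 of the 11, 1 of them only through another fraction. Fgf4 had 24.1 and 28.2 CPM against 102 and 135 CPM (log2 fold change -2.17, SE 0.20, edgeR adjusted p = 2.45e-08), with 0.224 and 0 CPM in the PDGFRa-only libraries. Fgfr1, the receptor gene common to both lineages, fell to 41.4 and 42.1 CPM against 106 and 119 CPM (log2 fold change -1.43, SE 0.18, edgeR adjusted p = 1.88e-06). Fgfr2 rose to 104 and 95.9 CPM against 17.5 and 12.7 CPM (log2 fold change 2.73, SE 0.20, edgeR adjusted p = 4.34e-10). Double-positive cells had thus more Fgfr2 counts and fewer Fgfr1 counts than PECAM1-only cells, with no overlap between libraries. A lack of overlap held for 36.2% of all tested genes upward and 35.5% downward. The double-positive Fgfr2 mean was 94.5% of the PDGFRa-only mean. Fgfr3 (2.34, edgeR adjusted p = 7.74e-06) and Fgfr4 (2.26, edgeR adjusted p = 1.32e-06) rose from low levels. Among ligands, Fgf10 had 58.2 and 74.3 CPM against 1.31 and 0.627 CPM (log2 fold change 6.05, SE 0.31, edgeR adjusted p = 1.57e-12; 6.70 without PECAM1-only replicate 1), and Fgf3 had 19.04 and 10.8 CPM against 1.75 and 1.72 CPM (log2 fold change 3.09, SE 0.36, edgeR adjusted p = 7.40e-07).

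Genes that ERK, the kinase downstream of FGF receptors, is known to induce did not move as a group. Of 13, 2 rose, 3 fell and 8 did not pass, with a median of 0.06. The rises and falls were 15.4% and 23.1%, beside 21.8% and 16.4% of all tested genes. Dusp4, a phosphatase gene of this feedback, had 71.6 and 79.6 CPM against 5.39 and 7.68 CPM (log2 fold change 3.53, SE 0.22, edgeR adjusted p = 3.28e-11), and Phlda1 had 56.6 and 69.8 CPM against 8.01 and 4.86 CPM (log2 fold change 3.28, SE 0.24, edgeR adjusted p = 4.35e-10). Etv5, an ETS factor gene, fell to 69.7 and 62.7 CPM against 186 and 166 CPM (log2 fold change -1.41, SE 0.17, edgeR adjusted p = 7.91e-07), and the inhibitor gene Spred1 fell too (-0.76, edgeR adjusted p = 0.00145). Dusp6 (0.25, edgeR adjusted p = 0.487), Spry2 (0.40, edgeR adjusted p = 0.120), Spry4 (0.07, edgeR adjusted p = 0.834) and Egr1 (-0.30, edgeR adjusted p = 0.544) did not pass the test. Egr1 was called without double-positive replicate 2 (adjusted p = 0.0257), at a log2 fold change of -0.97, and Spry2 was called without PDGFRa-only replicate 1 (adjusted p = 0.0417) or PDGFRa-only replicate 2 (0.0415) and with a fit to the 4 libraries (0.0431). The ligand gene Pdgfa, whose product binds PDGFRa, had 15.3 and 16.1 CPM against 26.9 and 24.8 CPM (log2 fold change -0.72, SE 0.22, edgeR adjusted p = 0.0131), and Pdgfc, another ligand gene, had 2.36 and 2.19 CPM against 6.26 and 6.90 CPM (log2 fold change -1.52, SE 0.40, edgeR adjusted p = 0.00495). Both were lower in the fraction that carried the receptor. Pdgfa was not called without PECAM1-only replicate 1 (adjusted p = 0.119), double-positive replicate 1 (0.118) or double-positive replicate 2 (0.0719), and Pdgfc was not called without double-positive replicate 2 (adjusted p = 0.0517). Of the 6 genes of the PDGF list other than Pdgfra, the related receptor gene Pdgfrb did not pass the test at 1.57 and 2.03 CPM, and Pdgfb, Pdgfd and Pdgfrl were too low to be tested.

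**Figure D5:**
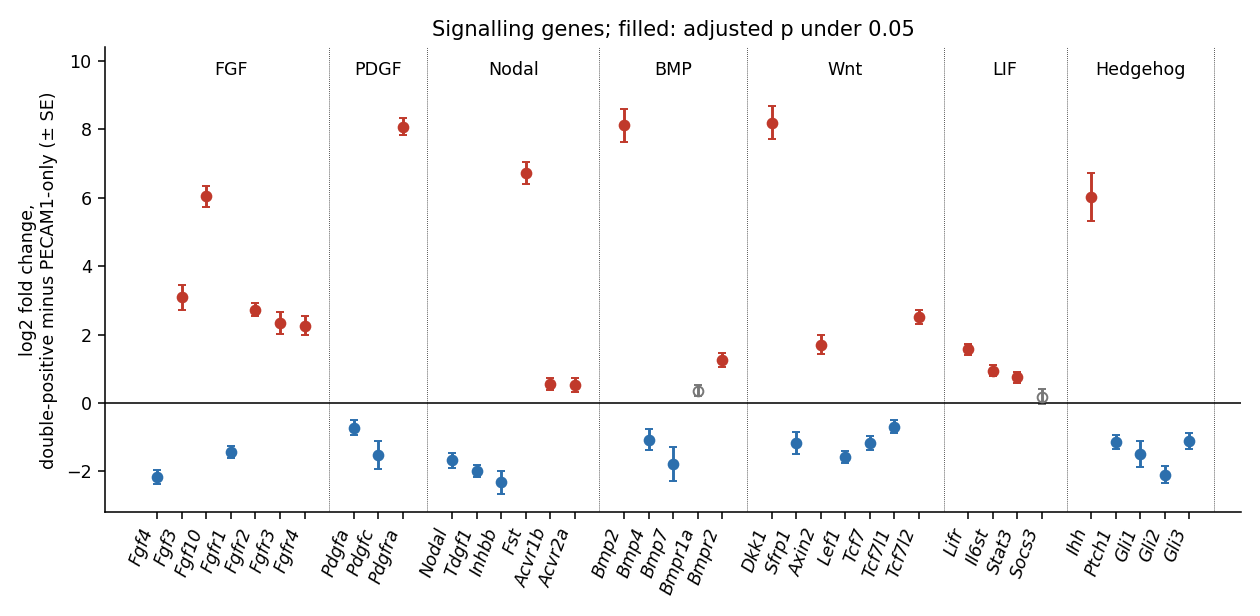
Log2 fold change, double-positive minus PECAM1-only, with its SE (y axis) for signalling genes by pathway (x axis), from edgeR. Filled points passed the test, red higher and blue lower, and open grey points did not. In the FGF block Fgf4 and Fgfr1 lie below 0 and the other genes above it, and in the hedgehog block Ihh lies above 0 and Ptch1 and the Gli genes below it.

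In the Nodal and Activin pathway, which maintains the epiblast, 5 of 14 genes rose and 3 fell. These were 35.7% and 21.4%, beside 21.8% and 16.4% of all tested genes. Tested were 12 of the 14, 1 of them only through another fraction. Nodal had 14.2 and 13.3 CPM against 43.4 and 44.8 CPM (log2 fold change -1.68, SE 0.22, edgeR adjusted p = 3.60e-06), and Inhbb, an activin chain gene, had 2.83 and 3.29 CPM against 13.97 and 16.9 CPM (log2 fold change -2.33, SE 0.32, edgeR adjusted p = 8.18e-06). Fst, the activin antagonist follistatin, had 78.4 and 70.1 CPM against 0.873 and 0.470 CPM (log2 fold change 6.73, SE 0.32, edgeR adjusted p = 5.88e-13). Nodal, Inhbb and the Nodal co-receptor gene Tdgf1 were thus lower and Fst higher, each without overlap. Such a lack of overlap held for 36.2% of all tested genes upward and 35.5% downward. Inhba, Lefty1 and Lefty2 of the same list were not called or were too low to be tested. Pmepa1, a target gene of SMAD factors, rose (2.65, edgeR adjusted p = 1.11e-10). The remaining rises were those of Acvr1b, Acvr2a and Smad7, with log2 fold changes of 0.52 to 0.56. With library size alone 2 genes of the list rose. The 3 small rises were lost with upper-quartile scaling (adjusted p = 0.0898, 0.165 and 0.152), when PECAM1-only replicate 1 was left out (0.247, 0.0698 and 0.312) and when double-positive replicate 2 was left out (0.0685, 0.388 and 0.252).

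Among 13 BMP genes, 11 were tested, 3 rose and 3 fell, and 2 passed the filter only through other fractions. The rises and falls were 23.1% of the 13 each, beside 21.8% and 16.4% of all tested genes. The number of rises was 5 with either PDGFRa-only library left out, and the number of falls 1 with PECAM1-only replicate 1 or double-positive replicate 1 left out. Bmp2 had 26.8 and 26.4 CPM, and 1 count in the PECAM1-only fraction gave a ratio of 352 (exact 95% counting interval 62.8 to 13956). Bmp4 had 13.1 and 6.10 CPM against 25.04 and 15.2 CPM (log2 fold change -1.07, SE 0.32, edgeR adjusted p = 0.0111). Bmp4 was not called without PECAM1-only replicate 1 (adjusted p = 0.255) or double-positive replicate 2 (0.211), and its log2 fold change was -1.70 without double-positive replicate 1. The receptor gene Bmpr2 rose to 128 and 182 CPM against 57.8 and 72.4 CPM (log2 fold change 1.25, SE 0.20, edgeR adjusted p = 3.04e-05), and Bmp7, a further ligand gene, fell to 0.944 and 2.66 CPM against 4.22 and 8.47 CPM (log2 fold change -1.80, SE 0.50, edgeR adjusted p = 0.00706), while Bmpr1a did not pass the test (0.36, edgeR adjusted p = 0.0936). Id1 (0.68, edgeR adjusted p = 0.146), Id2 (1.28, edgeR adjusted p = 0.113) and Id3 (-1.27, edgeR adjusted p = 0.0946), target genes of BMP signalling, did not pass the test either. Smad6 of the same list fell and Nog rose. Neither was called with the DESeq2 test (log2 fold change -1.73, adjusted p = 0.0645 for Smad6, and 2.80, adjusted p = 0.122 for Nog). Bmpr1a was called without PDGFRa-only replicate 1 (adjusted p = 0.0278) or PDGFRa-only replicate 2 (0.0307) and with a fit to the 4 libraries (0.0352), Id2 was called without PDGFRa-only replicate 1 (adjusted p = 0.0417) or PECAM1-only replicate 2 (0.0262) and with a fit to the 4 libraries (0.0493), and Id3 was called with scaling by library size alone (adjusted p = 0.0462), RPKM in limma with pseudocount 1 (0.0287) or RPKM in limma with pseudocount 0.1 (0.0264). The log2 fold change of Id2 was 2.73 with PECAM1-only replicate 2 left out. Bmp7 was not called without PECAM1-only replicate 2 (adjusted p = 0.183) or double-positive replicate 1 (0.119), and its log2 fold change was -2.71 without double-positive replicate 2.

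Of 14 Wnt pathway genes, 10 were tested, 4 rose and 4 fell, and 2 passed the filter only through other fractions. The rises and falls were 28.6% of the 14 each, beside 21.8% and 16.4% of all tested genes. The secreted inhibitor genes Dkk1 and Frzb rose: Dkk1 had 27.4 and 28.6 CPM, and 1 count in the PECAM1-only fraction gave a ratio of 371 (exact 95% counting interval 66.2 to 14695), and Frzb had 11.96 and 20.8 CPM against 0 counts, at least 72.4-fold higher. Sfrp1, another secreted inhibitor gene, fell to 13.2 and 24.7 CPM against 27.4 and 58.2 CPM (log2 fold change -1.17, SE 0.32, edgeR adjusted p = 0.00873). Sfrp1 was not called without PDGFRa-only replicate 1 (adjusted p = 0.168), PDGFRa-only replicate 2 (0.148), PECAM1-only replicate 2 (0.252) or double-positive replicate 1 (0.0851) and with a fit to the 4 libraries (0.0803), and its log2 fold change was -0.51 and -0.76 in the fits that left out PECAM1-only replicate 2 and double-positive replicate 1. The nuclear effectors of the pathway changed in both directions. Tcf7l2 rose to 82.1 and 117 CPM against 17.6 and 17.1 CPM (log2 fold change 2.52, SE 0.20, edgeR adjusted p = 1.96e-09). Lef1 fell to 43.4 and 35.99 CPM against 133 and 105 CPM (log2 fold change -1.59, SE 0.19, edgeR adjusted p = 6.85e-07), and Tcf7 fell to 19.04 and 25.2 CPM against 46.3 and 52.8 CPM (log2 fold change -1.16, SE 0.21, edgeR adjusted p = 1.28e-04). Tcf7l1, a repressor that restrains self-renewal genes, had 56.2 and 53.7 CPM against 94.9 and 82.5 CPM (log2 fold change -0.69, SE 0.20, edgeR adjusted p = 0.00965). Tcf7l1 was not called without PECAM1-only replicate 1 (adjusted p = 0.117) or double-positive replicate 2 (0.0611). Axin2, a target gene of the pathway, rose to 16.8 and 13.8 CPM against 4.66 and 4.70 CPM (log2 fold change 1.70, SE 0.29, edgeR adjusted p = 7.06e-05).

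LIF acts through LIFR and gp130 on STAT3 and is known to favour primitive endoderm as well as naive ESCs. Of 10 genes, 5 rose and 3 fell (50% and 30%, beside 21.8% and 16.4% of all tested genes). Each of 3 libraries, PECAM1-only replicate 1 and both of the double-positive fraction, lowered the rises to 3 when left out. Lifr had 558 and 533 CPM against 191 and 175 CPM (log2 fold change 1.57, SE 0.16, edgeR adjusted p = 7.48e-08), Il6st, which encodes gp130, had 298 and 244 CPM against 135 and 148 CPM (log2 fold change 0.94, SE 0.16, edgeR adjusted p = 8.14e-05), and Stat3 had 140.4 and 135 CPM against 76.4 and 87.2 CPM (log2 fold change 0.75, SE 0.16, edgeR adjusted p = 7.19e-04). Socs3, the feedback inhibitor that STAT3 induces, did not pass the test (0.18, edgeR adjusted p = 0.525), nor did the target gene Bcl3 (-0.03, edgeR adjusted p = 0.929), and the kinase gene Pim3 fell (-1.13, edgeR adjusted p = 3.29e-04). Junb and the kinase gene Jak1 of the same list rose. Neither was called with the DESeq2 test (log2 fold change 1.04, adjusted p = 0.0733 for Junb, and 0.40, adjusted p = 0.0560 for Jak1). Pim1 (-1.16, edgeR adjusted p = 0.00534) and the homeobox gene Gbx2 (-0.87, edgeR adjusted p = 0.0137), both known STAT3 targets, fell. Pim1 was not called without PECAM1-only replicate 2 (adjusted p = 0.109) or double-positive replicate 1 (0.0526) and with RPKM in limma with pseudocount 0.1 (0.102), and Gbx2 was not called without PECAM1-only replicate 1 (adjusted p = 0.0732), PECAM1-only replicate 2 (0.0850), double-positive replicate 1 (0.155) or double-positive replicate 2 (0.0565).

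In the hedgehog pathway 1 of 9 genes rose and 4 fell (11.1% and 44.4%, beside 21.8% and 16.4% of all tested genes). Tested were 7 of the 9, 1 of them only through another fraction. The ligand gene Ihh had 5.35 and 7.04 CPM, and 1 count in the PECAM1-only fraction gave a ratio of 82.1 (exact 95% counting interval 14.3 to 3283). The receptor gene Ptch1 fell to 41.7 and 41.2 CPM against 74.8 and 109 CPM (log2 fold change -1.15, SE 0.19, edgeR adjusted p = 6.92e-05), and the transcription factor gene Gli2 fell to 12.9 and 18.6 CPM against 52.8 and 83.1 CPM (log2 fold change -2.11, SE 0.25, edgeR adjusted p = 8.51e-07). Gli3 (-1.11, edgeR adjusted p = 6.97e-04) and Gli1 (-1.50, edgeR adjusted p = 0.00355) fell, and Gli1 was not called without PECAM1-only replicate 2 (adjusted p = 0.0624). Among 12 genes of retinoid handling, 5 rose and 2 fell (41.7% and 16.7%, beside 21.8% and 16.4% of all tested genes). Tested were 10 of the 12, 2 of them only through other fractions. In a fit to the 4 libraries, 4 fell. Cyp26a1, which breaks down retinoic acid, had 84.3 and 94.98 CPM against 1.02 and 0.627 CPM (log2 fold change 6.72, SE 0.28, edgeR adjusted p = 9.13e-14). Stra6, a receptor for the retinol carrier, had 36.3 and 33.3 CPM against 1.16 and 2.35 CPM (log2 fold change 4.31, SE 0.30, edgeR adjusted p = 2.31e-10), and Rbp4, which encodes that carrier, had 10.9 and 10.2 CPM against 1.16 and 0.470 CPM (log2 fold change 3.63, SE 0.40, edgeR adjusted p = 3.19e-07; 4.45 without PECAM1-only replicate 1). The retinoic acid receptor genes differed in direction. Rarb rose, but was not called with the DESeq2 test (log2 fold change 1.41, adjusted p = 0.0801). Rarg fell to 23.4 and 20.7 CPM against 80.4 and 59.7 CPM (log2 fold change -1.67, SE 0.22, edgeR adjusted p = 2.76e-06). Its dimer partner gene Rxra fell (-1.02, edgeR adjusted p = 0.0306), and Rxra was not called without PECAM1-only replicate 2 (adjusted p = 0.434), double-positive replicate 1 (0.0911) or double-positive replicate 2 (0.131) and with the DESeq2 test (0.0665).

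Junction genes showed no common direction: of 15, 4 rose, 3 fell and 7 did not pass. The shares of 26.7% and 20% lay near the 21.8% and 16.4% of all tested genes. Tested were 14 of the 15, 2 of them only through other fractions. Cdh1, which encodes E-cadherin, had 416 and 343 CPM against 444 and 482 CPM (log2 fold change -0.29, SE 0.16, edgeR adjusted p = 0.170), and Epcam had 116 and 107 CPM against 112 and 139 CPM (log2 fold change -0.17, SE 0.16, edgeR adjusted p = 0.448). Neither passed the test, and the Epcam levels overlapped between the fractions. Cdh1 was called with upper-quartile scaling (adjusted p = 0.0252) or scaling by library size alone (0.0150). Cdh6, another cadherin gene, had 34.3 and 39.1 CPM against 0 counts, at least 162-fold higher. Cldn6, a tight junction gene, had 89.5 and 134 CPM against 3.20 and 8.94 CPM (log2 fold change 4.21, SE 0.31, edgeR adjusted p = 8.74e-09; 5.13 without PECAM1-only replicate 2). Jup, which encodes plakoglobin, rose (1.03, edgeR adjusted p = 4.38e-05). The desmosome gene Pkp2 (-1.27, edgeR adjusted p = 2.25e-05) and the P-cadherin gene Cdh3 (-1.55, edgeR adjusted p = 1.17e-04) fell, as did the tight junction gene Cldn4 (-1.89, edgeR adjusted p = 0.00615). Cldn4 was not called without PECAM1-only replicate 2 (adjusted p = 0.210) or double-positive replicate 1 (0.0908), and its log2 fold change was -2.34 with PECAM1-only replicate 1 left out and -2.60 with double-positive replicate 2 left out. Of 14 integrin and dystroglycan genes, 11 were tested, 4 rose and 4 fell (28.6% of the 14 each way, beside 21.8% and 16.4% of all tested genes). The number of falls depended on single libraries, namely PECAM1-only replicate 1 and either double-positive library. The fibronectin receptor subunit Itga5 (0.91, edgeR adjusted p = 1.21e-04) rose with its partner Itgb1 (0.78, edgeR adjusted p = 0.00190), and Itgav rose (1.04, edgeR adjusted p = 1.86e-04). Itgb3 fell (-1.70, edgeR adjusted p = 6.19e-04), and so did Dag1, the gene of the laminin receptor dystroglycan (-0.66, edgeR adjusted p = 0.00186); Dag1 was not called without double-positive replicate 1 (adjusted p = 0.0685).

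Among 19 cell cycle genes, 2 rose and 9 fell (10.5% and 47.4%, beside 21.8% and 16.4% of all tested genes), with a median of -0.48. With double-positive replicate 2 left out, 5 fell and 1 rose. The D-type cyclins differed in direction: Ccnd2 rose to 84.7 and 117 CPM against 2.47 and 2.67 CPM (log2 fold change 5.28, SE 0.25, edgeR adjusted p = 5.88e-13), Ccnd1 fell to 18.1 and 22.1 CPM against 52.7 and 73.5 CPM (log2 fold change -1.65, SE 0.23, edgeR adjusted p = 6.54e-06), and Ccnd3 did not pass the test (0.03, edgeR adjusted p = 0.904). The 6 genes of the replicative helicase, Mcm2 to Mcm7, all fell, with the largest falls in Mcm6 (-0.95, edgeR adjusted p = 4.53e-05) and Mcm2 (-0.94, edgeR adjusted p = 5.29e-05). Mcm4 was not called without PECAM1-only replicate 1 (adjusted p = 0.0765), double-positive replicate 1 (0.0766) or double-positive replicate 2 (0.0829), and Mcm7 was not called without double-positive replicate 2 (adjusted p = 0.0710). Ccne1 and Top2a were the other genes that fell, and both lost the call in fits that left out single libraries. Mki67 (0.37, edgeR adjusted p = 0.0668), Ccnb1 (-0.27, edgeR adjusted p = 0.215) and Cdk1 (-0.05, edgeR adjusted p = 0.853), like Top2a genes of dividing cells, did not pass. Mki67 was called without PDGFRa-only replicate 1 (adjusted p = 0.0120) or PDGFRa-only replicate 2 (0.0130) and with a fit to the 4 libraries (0.0147) or the replicate block (0.0490), and Ccnb1 was called with upper-quartile scaling (adjusted p = 0.0371) or scaling by library size alone (0.0213). Cdkn1b, an inhibitor of cyclin-dependent kinases, rose (0.94, edgeR adjusted p = 0.00287), and Cdkn1b was not called without double-positive replicate 2 (adjusted p = 0.0539). With library size alone 11 genes of the list fell. Of 13 p53 genes, 1 rose and 6 fell (7.69% and 46.2%, beside 21.8% and 16.4% of all tested genes). Trp53 itself fell to 194 and 145 CPM against 441 and 344 CPM (log2 fold change -1.21, SE 0.19, edgeR adjusted p = 2.74e-05). Bax (-1.03, edgeR adjusted p = 1.39e-04) and Perp (-1.25, edgeR adjusted p = 1.39e-04), which act in cell death, fell too. Trp53inp1, which also acts in cell death, fell as well (-0.96, edgeR adjusted p = 6.26e-05). Cdkn1a (0.36, edgeR adjusted p = 0.291) and Mdm2 (-0.21, edgeR adjusted p = 0.348), known p53 targets, did not pass. Mdm2 was called with scaling by library size alone (adjusted p = 0.0412). Ccng1, a further target, rose (0.45, edgeR adjusted p = 0.0427), and Ccng1 was not called without PECAM1-only replicate 1 (adjusted p = 0.121), PECAM1-only replicate 2 (0.143) or double-positive replicate 2 (0.330) and with DESeq2 size factors (0.0874), upper-quartile scaling (0.193), scaling by library size alone (0.274), a minimum count of 50 (0.0665) or the DESeq2 test (0.111).

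Of 8 DNA methylation genes, 1 rose and 3 fell (12.5% and 37.5%, beside 21.8% and 16.4% of all tested genes). Tet1, a 5-methylcytosine oxidase gene of ESCs, had 987 and 918 CPM against 2565 and 2305 CPM (log2 fold change -1.35, SE 0.16, edgeR adjusted p = 7.93e-07). Dnmt1 (-0.62, edgeR adjusted p = 0.00264) and Uhrf1 (-0.63, edgeR adjusted p = 0.00370), which maintain methylation, fell, and Dnmt3b rose as given with the primed genes. Dnmt1 was not called without double-positive replicate 2 (adjusted p = 0.0856), and Uhrf1 was not called without double-positive replicate 2 (adjusted p = 0.0581). Of 12 genes known to respond to cell dissociation, 4 rose and 1 fell (33.3% and 8.33%, beside 21.8% and 16.4% of all tested genes). Tested were 11 of the 12, 1 of them only through another fraction. With the replicate block 3 fell, and in a fit to the 4 libraries 2 fell. The summed level of the 12 genes was 144 and 209 CPM against 127 and 154 CPM. Atf3 had 51.6 and 54.8 CPM against 2.47 and 2.98 CPM (log2 fold change 4.28, SE 0.28, edgeR adjusted p = 7.05e-11), Jun had 13.1 and 21.7 CPM against 3.20 and 6.12 CPM (log2 fold change 1.91, SE 0.32, edgeR adjusted p = 7.24e-05), Zfp36 rose (1.63, edgeR adjusted p = 9.12e-05), and Ier2 fell to 14.9 and 21.3 CPM against 37.4 and 37.6 CPM (log2 fold change -1.05, SE 0.22, edgeR adjusted p = 6.14e-04). Junb, given with the LIF genes, rose as well. Fos (0.05, edgeR adjusted p = 0.956) and Egr1 did not pass. The part of dissociation in the differences between the fractions was not tested.

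Markers of other cell types were mostly low. The counts of rises and falls given here stand beside 21.8% and 16.4% of all tested genes. The filter was passed only through other fractions by 3 endothelial and blood genes and by 1 gene each of the fibroblast and trophoblast lists. The gastrulation mesoderm list had 1 tested gene of 7, Eomes (0.02, edgeR adjusted p = 0.959), and a summed level of 10.1 and 10.3 CPM in double-positive cells, against 12.1 and 9.57 CPM in PECAM1-only cells; T had 0 counts in the double-positive libraries. Neural markers summed to 37.1 and 46.3 CPM against 93.9 and 93.5 CPM, with 4 of 8 that fell, namely Pax6 (-1.75, edgeR adjusted p = 6.52e-04), Tubb3 (-1.39, edgeR adjusted p = 1.02e-04), Ncam1 (-1.36, edgeR adjusted p = 0.00134) and Nes (-0.77, edgeR adjusted p = 0.0223), and with Neurog2 at 0 counts in all 6 libraries. Nes was not called without PECAM1-only replicate 1 (adjusted p = 0.0796), PECAM1-only replicate 2 (0.127) or double-positive replicate 1 (0.326) and with the DESeq2 test (0.0515). Fibroblast markers summed to 11.96 and 29.3 CPM against 10.3 and 16.8 CPM, with Twist2 at 0 counts in all 6 libraries and 1 of 12 that rose, Col1a2, at 2.20 and 3.29 CPM against 0.291 and 0 CPM, with 2 counts in the PECAM1-only fraction and a ratio of 18.2 (exact 95% counting interval 4.67 to 156). Tagln (1.28, edgeR adjusted p = 0.0921) and Twist1 (0.22, edgeR adjusted p = 0.828) did not pass. Tagln was called without double-positive replicate 1 (adjusted p = 0.00223) and with no count filter (0.00864) or the replicate block (0.0205), each of which gave 2 rises in the list, at a log2 fold change of 1.98 when double-positive replicate 1 was left out. Trophoblast markers summed to 82.0 and 89.2 CPM against 47.9 and 55.8 CPM; Tead4 rose to 64.8 and 65.4 CPM against 9.90 and 11.9 CPM (log2 fold change 2.58, SE 0.20, edgeR adjusted p = 1.87e-09) and made up most of the sum, while Cdx2 had 0.315 and 0 CPM. Plac1, a placental gene, had 5.19 and 4.69 CPM against 0 counts, at least 21.8-fold higher, Tfap2c fell (-1.70, edgeR adjusted p = 1.24e-05), and Tfap2a did not pass (-0.71, edgeR adjusted p = 0.323). Tfap2a was called without double-positive replicate 2 (adjusted p = 0.0496), at a log2 fold change of -2.26. Endothelial and blood markers summed to 337 and 320.4 CPM against 43.2 and 42.8 CPM. Most of the double-positive sum came from Flt1, Runx1 and Cdh5, while Ptprc, Erg and Emcn had 0 counts in all 6 libraries and Tie1 had 0 and 0.313 CPM. Runx1, a factor of blood formation, had 129 and 104 CPM against 0.728 and 0.784 CPM (log2 fold change 7.23, SE 0.32, edgeR adjusted p = 1.64e-13), and Flt1, a VEGF receptor gene, had 108 and 134 CPM against 2.04 and 1.57 CPM (log2 fold change 6.05, SE 0.25, edgeR adjusted p = 6.88e-14). Cdh5, which encodes VE-cadherin, had 64.04 and 44.6 CPM, and 1 count in the PECAM1-only fraction gave a ratio of 719 (exact 95% counting interval 129 to 28446). Kdr, another VEGF receptor gene, rose (4.32, edgeR adjusted p = 2.12e-07), and Eng, the endoglin gene, fell (-0.70, edgeR adjusted p = 0.0209). Eng was not called without PECAM1-only replicate 1 (adjusted p = 0.0870), PECAM1-only replicate 2 (0.117), double-positive replicate 1 (0.0975) or double-positive replicate 2 (0.139). The part of such cells in the differences described was not tested. Of 7 genes listed for 2-cell-like cells, 6 were in the count table and 0 were high enough to be tested, with a summed level of 0.156 to 1.42 CPM.

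The largest rises, ranked by fitted fold change among genes with at least 5 CPM on average over the 4 libraries, held 10 genes with 0 PECAM1-only counts, for which the rank is not exact. Habp2, a secreted serine protease gene on chromosome 19, had 55.1 and 52.6 CPM, at least 238-fold higher. Lgals2, a galectin gene, had 32.1 and 26.1 CPM (at least 129-fold), and Bace2, a protease that cleaves the amyloid precursor, had 20.1 and 14.7 CPM (at least 76.9-fold). Gm4980 had 18.6 and 15.3 CPM (at least 74.8-fold), Spry3, a Sprouty family gene, 12.7 and 19.7 CPM (at least 71.7-fold), and Timd2, a ferritin receptor gene, 14.005 and 15.2 CPM (at least 64.4-fold). Cdh6, Lpar3, Foxa2, Frzb and Cubn, given with their groups, belong to the same 12. Dram1, an autophagy and p53 target gene, had 73.01 and 89.5 CPM, and 1 PECAM1-only count gave a ratio of 1077 (exact 95% counting interval 193 to 42567). These genes were picked by this difference, so it is a description. Cubn and Pdgfra each overlap annotated genes of the opposite strand, as do Habp2, Lgals2 and Gm4980 and, among the largest falls, Nphs1 and Icam1, and whether the counting used strand is not given in the sources used here.

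The largest falls were much smaller, and the 12 genes had double-positive means of 16.5% to 20.3% of the PECAM1-only means. Tcea3, a transcription elongation factor gene, had 6.92 and 3.13 CPM against 35.96 and 25.1 CPM (log2 fold change -2.60, SE 0.31, edgeR adjusted p = 1.00e-06; -3.26 without double-positive replicate 1). Nphs1, the nephrin gene, had 8.03 and 9.39 CPM against 45.1 and 47.4 CPM (log2 fold change -2.41, SE 0.23, edgeR adjusted p = 5.73e-08), and Icam1, an adhesion receptor gene, had 13.4 and 9.70 CPM against 55.5 and 58.5 CPM (log2 fold change -2.30, SE 0.24, edgeR adjusted p = 9.27e-08). Others of the 12 were Nanog and Inhbb, given with their groups, and Ndrg2 (-2.48), Shisa2 (-2.47), Nlrp14 (-2.38), A2m, the protease inhibitor alpha-2-macroglobulin (-2.34), Aoah (-2.37) and the processed pseudogene Gm5514 (-2.55), all as log2 fold changes. Reads of Gm5514 may be shared with its parent gene. Aoah was -1.55 without PECAM1-only replicate 1 (adjusted p = 0.0531), -3.65 without double-positive replicate 1 and -1.68 without double-positive replicate 2. In the PDGFRa-only libraries these 12 genes had 0 to 2.27 CPM.

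Few genes peaked in the double-positive cells. Called higher than both single-positive fractions were 6 genes (0.0431% of those tested) and called lower than both was 1, U2af1 (0.00719%). Fbp2, which encodes a fructose bisphosphatase, had 87.6 and 79.02 CPM in double-positive cells, 2.18 and 4.08 CPM in PECAM1-only cells and 34.1 and 46.5 CPM in PDGFRa-only cells (log2 fold change 4.74, SE 0.27, edgeR adjusted p = 9.66e-12, against PECAM1-only; 1.04, adjusted p = 0.00117, against PDGFRa-only). Pramel7, a gene of the preferentially expressed antigen family active in early embryos, had 28.8 and 23.9 CPM, 10.3 and 6.59 CPM and 10.6 and 9.22 CPM in the same order (log2 fold change 1.63, SE 0.25, edgeR adjusted p = 2.76e-05; 1.42, adjusted p = 5.03e-04). Nr3c2, the mineralocorticoid receptor gene, had 18.9 and 15.96 CPM, 8.88 and 4.86 CPM and 7.86 and 4.53 CPM (log2 fold change 1.33, SE 0.30, edgeR adjusted p = 0.00141; 1.53, adjusted p = 0.00190). In these 3 genes both double-positive libraries were above the other 4, and both calls held under all 13 alternatives run for this pair of comparisons. Axin2 (16.8 and 13.8 CPM, 4.66 and 4.70 CPM and 10.3 and 7.10 CPM), Fbp1 (3.15 and 2.97 CPM, 0.291 and 0.941 CPM and 0 CPM) and Lmo2 (2.05 and 1.72 CPM, 0.146 and 0.314 CPM and 0 and 0.302 CPM) were the other 3. U2af1, a splicing factor gene, had 8.34 and 6.88 CPM, 13.4 and 12.2 CPM and 19.8 and 11.6 CPM. Axin2, Fbp1 and Lmo2 kept both calls in 7, 10 and 7 of the 13 alternatives, and U2af1 in 7. The number of genes called higher than both was 25 when PDGFRa-only replicate 2 was left out, 3 when PECAM1-only replicate 1 was left out and 3 with DESeq2. The number called lower than both was 0 to 7 under these alternatives: 7 when PDGFRa-only replicate 2 was left out, 5 with DESeq2 size factors in edgeR, 0 with DESeq2 and 0 when PECAM1-only replicate 2 was left out. All of these genes, other than Axin2, were named after their values were seen.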

How the data were processed

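RNA-seq of 6 sorted ESC libraries was analysed from a table of gene counts. The counts were deposited as raw whole numbers for 38561 Ensembl genes, and per the submitters' processing notes cutadapt 1.2.1, Bowtie2 2.1.0, TopHat2 2.0.8b, HTSeq 0.5.4p3 and the build GRCm38 were used, with no role or order given. The RPKM values of a second table, with 16105 genes, were preprocessed by the authors in a way not given in the sources used here, and served as an alternative only. The annotation, the use of strand and the treatment of near-identical gene copies are not given in the sources used here. The RNA was amplified and carries no molecular identifiers, so intervals and floors cover counting error only.

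Genes with enough counts (filterByExpr, minimum count 10) were tested in edgeR 4.0.16 (R 4.3.3) with TMM scaling and the robust quasi-likelihood test, 1 mean per fraction over all 6 libraries (3 residual degrees of freedom), and Benjamini-Hochberg adjustment over 13909 genes at 0.05. The third fraction entered the fit to share the estimate of spread. Its 2 libraries differed more from each other than those of the compared fractions. The chi-square of counts per degree of freedom was 28.6 for PDGFRa-only, 6.11 for PECAM1-only and 5.82 for double-positive libraries. Each p thus pools unequal spreads, and the fit to the compared libraries alone gave more calls (3312 rises and 2786 falls). The biological coefficient of variation was 13.46%. The SE was derived from the fold change and its F statistic. CPM are counts per 1000000 after TMM scaling, and levels are compared between libraries and not between genes. Log2 fold changes of genes at 0 counts depend on the prior count, so a fold against a floor of 3 counts over the fraction is given for these, and for 1 to 3 counts a ratio with an exact 95% interval. The script was tested on simulated counts.

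The gene lists (36, with 416 distinct genes, of which 350 were tested) and the comparison were chosen with earlier results of these data known, so no list is independent evidence. Named were Pecam1 and Pdgfra, the 12 largest rises and the 12 largest falls among called genes with a mean of at least 5 CPM, every member of the 6 lists on endoderm factors, receptors, basement membrane and pluripotency, and in other lists the 4 members with the smallest p and called members against the majority. List members named beyond this rule were chosen after their values were seen. A few of the genes that the rule names are not reported here. The 16 alternatives were other scalings, no or a stricter filter, DESeq2 1.42.0, a fit to 4 libraries, a replicate block, leaving out each library, and limma 3.58.1 on log2(RPKM + 1) or log2(RPKM + 0.1). Positions came from GENCODE M21, in which 36639 identifiers were found, and promoters from RefSeq.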

Additional observations from a re-analysis of the deposited data

How the results depend on the processing

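The main counts of 3031 rises and 2288 falls were recomputed under 16 alternatives, and no called gene changed direction in a fit to the counts. Library size alone gave 3658 falls. DESeq2 size factors in edgeR gave 2785 rises and 2689 falls, no filter 3278 and 2089, a minimum count of 50 gave 2477 and 2052, DESeq2 2436 and 1906, and the 4 compared libraries alone 3312 and 2786. RPKM in limma gave 2472 and 2984 with a pseudocount of 1, and 2546 and 2737 with 0.1. On the log2(RPKM + 1) scale, 1237 genes rose at least 2-fold, against 1985. A fold change on that scale understates the change of low genes. Leaving out 1 library at a time gave 2331 to 3475 rises, 1307 to 2788 falls, 1803 to 2071 rises of at least 2-fold and 896 to 1350 falls of at least 2-fold. The log2 fold change of Pecam1 was -1.76 to -1.51 in these fits (largest adjusted p = 1.34e-05), and that of Pdgfra 8.04 to 8.16 (largest adjusted p = 1.23e-13). Over all alternatives Pecam1 was -1.86 to -1.51 and Pdgfra 5.55 to 8.16. Slc2a3 turned from 0.62 to -0.99 on RPKM with either pseudocount (adjusted p = 0.184 with 1 and 0.186 with 0.1), and the cause was not tested.

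Between scalings, counts over lists moved by more than 1.5 times with library size alone for falls in glycolysis (3 to 7), retinoid handling (2 to 4), ribosomal proteins (1 to 7), dissociation stress (1 to 3) and junctions (3 to 6), and for rises in glycolysis (3 to 1), the Nodal pathway (5 to 2), p53 targets (1 to 0) and mitochondrially encoded genes (2 to 0). The library numbers were not taken as pairs: deviations of same-numbered libraries correlated at 0.204 between PECAM1-only and double-positive cells, with 2 numbers only. With the replicate block, 3179 genes rose and 2465 fell, and 10 of the 5319 calls were lost. With 2 libraries per fraction and 3 residual degrees of freedom, genes that are not called may still differ.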

Other observations

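Imprinted genes, which are expressed from 1 parental allele, moved in both directions: of 13 listed, 5 rose, 3 fell and 2 were too low to be tested. The rises and falls were 38.5% and 23.1%, beside 21.8% and 16.4% of all tested genes. Tested were 11 of the 13, 1 of them only through another fraction. H19, a non-coding RNA gene, had 255 and 303 CPM in the double-positive and 5.10 and 14.3 CPM in the PECAM1-only libraries (log2 fold change 4.86, SE 0.29, edgeR adjusted p = 6.61e-10; 5.78 without PECAM1-only replicate 2). Igf2, its neighbour that encodes an insulin-like growth factor, had 5.04 and 5.63 CPM against 0.291 and 0.470 CPM (log2 fold change 3.75, SE 0.55, edgeR adjusted p = 1.41e-05). Peg3, a zinc finger gene, had 640.0 and 987 CPM against 199.6 and 252 CPM (log2 fold change 1.85, SE 0.22, edgeR adjusted p = 1.50e-06). Igf2r, the receptor gene that clears IGF2, fell to 123 and 132 CPM against 184 and 242 CPM (log2 fold change -0.75, SE 0.17, edgeR adjusted p = 0.00152), and Mest fell too (-0.76, edgeR adjusted p = 0.00408). Igf2r was not called without PECAM1-only replicate 2 (adjusted p = 0.0599), and Mest was not called without double-positive replicate 1 (adjusted p = 0.111). H19, Igf2 and Peg3 were thus higher in both double-positive libraries than in both PECAM1-only libraries, as were 36.2% of all tested genes.

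Of 16 glycolysis genes, 3 rose, 3 fell (18.8% each way, beside 21.8% and 16.4% of all tested genes) and 10 did not pass the test. With either PDGFRa-only library left out 6 fell, and with PECAM1-only replicate 1 or double-positive replicate 2 left out 1 rose. The transporter gene Slc2a1 had 419 and 521 CPM against 868 and 893 CPM (log2 fold change -0.91, SE 0.18, edgeR adjusted p = 4.50e-04). The phosphofructokinase genes went apart, Pfkp to 248 and 239.6 CPM against 656 and 565 CPM (log2 fold change -1.32, SE 0.18, edgeR adjusted p = 6.11e-06) and Pfkl to 219.7 and 260.4 CPM against 112 and 139 CPM (log2 fold change 0.93, SE 0.17, edgeR adjusted p = 2.00e-04). Tpi1, which encodes an isomerase, rose (0.54, edgeR adjusted p = 0.0136), but Tpi1 was not called without PECAM1-only replicate 1 (adjusted p = 0.186), double-positive replicate 1 (0.0530) or double-positive replicate 2 (0.0757) and with upper-quartile scaling (0.0737), scaling by library size alone (0.114), RPKM in limma with pseudocount 1 (0.0866) or RPKM in limma with pseudocount 0.1 (0.0863). Among 6 mitochondrially encoded genes, mt-Nd5 (0.66, edgeR adjusted p = 0.0135) and mt-Nd1 (0.62, edgeR adjusted p = 0.0158), which encode complex I subunits, rose. With PECAM1-only replicate 2 left out 5 of the 6 rose. mt-Nd5 was not called without PECAM1-only replicate 1 (adjusted p = 0.251) or double-positive replicate 2 (0.0611) and with upper-quartile scaling (0.0523), scaling by library size alone (0.0770), RPKM in limma with pseudocount 1 (0.0832) or RPKM in limma with pseudocount 0.1 (0.0842), and mt-Nd1 was not called without PECAM1-only replicate 1 (adjusted p = 0.285) or double-positive replicate 1 (0.0747) and with upper-quartile scaling (0.0665) or scaling by library size alone (0.0969). Of 14 ribosomal protein genes, Rpl3 alone fell (-0.62, edgeR adjusted p = 0.0324), and Rpl3 was not called without PECAM1-only replicate 1 (adjusted p = 0.246), PECAM1-only replicate 2 (0.0677), double-positive replicate 1 (0.0523) or double-positive replicate 2 (0.321) and with no count filter (0.0578).

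By annotated type, 2872 protein-coding genes rose and 2101 fell, while 26 long intergenic non-coding RNA genes rose and 53 fell. Antisense genes numbered 22 rises and 25 falls, and processed pseudogenes 58 and 55. The difference in balance between these types was not tested.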
